A study of Homo sapiens with 4 samples.

Results

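The 10 genes described here form the core of the circadian clock. They were taken by symbol from a table of 60725 genes and comprise the activators CLOCK and BMAL1 (listed as ARNTL in older annotations), the repressors PER1, PER2, PER3, CRY1 and CRY2, the nuclear receptors NR1D1 and NR1D2 (REV-ERBα and REV-ERBβ), and the output factor DBP. All 10 were among the 15356 genes tested, those that reached 10 counts in 2 or more libraries. The RNA came from RPE1 SunTag cells, a line of human retinal pigment epithelium kept dividing by added telomerase, and the SunTag system (a protein scaffold that recruits many copies of an effector) was present in both groups. The control group received a Silencer Select Negative Control No. 2 siRNA, and the TOP2BKD group received an ON-TARGETplus SMARTpool against TOP2B, the topoisomerase IIβ that relieves torsional stress in DNA. Both siRNAs were used at 10 nM, transfected again after 48 h, and the cells were collected 72 h later, on day 5. Each group had 2 biological replicates of 1 cell line, and neither synchronization of the cells nor the hour of collection is given in the sources used here.

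The clock is a transcriptional feedback loop that runs in nearly every cell. CLOCK and BMAL1 bind E-box elements as a pair and switch on the PER, CRY, NR1D1, NR1D2 and DBP genes. PER and CRY proteins return to the nucleus and inhibit CLOCK and BMAL1, while the REV-ERB receptors repress BMAL1 through elements they share with the ROR activators. DBP and its relatives TEF and HLF act through D-box elements, which NFIL3 occupies as an opposing repressor. In a culture without synchronization, cells sit at different phases of this loop, so that a bulk level averages over phases.

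The libraries held 20310259 to 23887013 counts, so that 1 CPM (reads scaled to library size) rested on 20.3 to 23.9 reads. Spearman's rho between libraries over all genes tested was 0.994 within groups and 0.981 to 0.987 across them. TOP2B, the knocked-down gene, stood at 154.9 and 143.5 CPM in the control replicates and at 15.3 and 13.3 CPM in the TOP2BKD replicates, 9.58% of control (log2 fold change -3.38, SE 0.14, edgeR adjusted p = 5.1e-06). Of 22 marker genes listed for the line and for other cells, 11 had enough counts to be tested. By edgeR 0 of these were called (10.8% of all genes were). At an unadjusted p of 0.05, 4 passed (KRT18, PDGFRB and PECAM1 lower, PMEL higher), against 26.3% of all genes. DESeq2 called 1, where it called 11.8% of all genes. KRT8, KRT18, MITF, OTX2 and TERT were detected, whereas RPE65 and TYR, which define mature pigment epithelium, had 0 counts, as had EPCAM and CD3E. Of the other pigment epithelium markers, PMEL had 7 to 31 counts, BEST1 14 to 20 and SERPINF1 21 to 47, and RLBP1 had at most 1. The epithelial marker CDH1 had 1 or 2 counts. Of the fibroblast markers listed, PDGFRB had 2320 to 4164 counts, COL1A1 106 to 157 and DCN at most 2. In bulk libraries fewer expressing cells and less RNA per cell cannot be told apart, and this holds for every level below.

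Short elements of the clock loop were searched in the RefSeq promoters of these genes (GRCh38.p14, 250 bases before to 50 after each start, both strands, 15 promoters for the 10 genes). The stretches below are shown because clock factors are known to bind elements of these letters. Each is a match of letters, and whether it is bound was not measured. Capitals mark the element, and each stretch reads 5′ to 3′ on the gene's strand. The E-box is CACGTG, its near-match E′-box is CACGTT or AACGTG, the D-box was searched as TTATGTAA, TTACATAA or TTACGTAA, and the element of the REV-ERB and ROR receptors by its consensus.
PER1 E-box, chr17:8152552-8152597, minus strand: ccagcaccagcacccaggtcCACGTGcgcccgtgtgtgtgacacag
PER2 E′-box, chr2:238288782-238288827, minus strand: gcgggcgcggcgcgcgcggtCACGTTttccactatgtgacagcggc
PER2 D-box, chr2:238288586-238288633, minus strand: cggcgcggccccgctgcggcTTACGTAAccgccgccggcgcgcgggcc
PER3 D-box, chr1:7784094-7784141, plus strand: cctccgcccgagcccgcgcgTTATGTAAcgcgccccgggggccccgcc
CRY1 E′-box, chr12:107093613-107093658, minus strand: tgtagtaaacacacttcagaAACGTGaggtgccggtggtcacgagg
CRY2 E′-box, chr11:45847267-45847312, plus strand: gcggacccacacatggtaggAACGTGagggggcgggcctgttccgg
NR1D1 E′-box, chr17:40100732-40100777, minus strand: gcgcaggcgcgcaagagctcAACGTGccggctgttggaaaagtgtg
NR1D2 E-box, chr3:23945946-23945991, plus strand: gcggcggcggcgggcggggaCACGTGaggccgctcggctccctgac
BMAL1 REV-ERB and ROR element, chr11:13277796-13277839, plus strand: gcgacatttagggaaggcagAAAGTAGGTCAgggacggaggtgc
CLOCK REV-ERB and ROR element, chr4:55546119-55546169, minus strand: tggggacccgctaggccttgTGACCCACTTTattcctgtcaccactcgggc
TEF E-box, chr22:41367240-41367285, plus strand: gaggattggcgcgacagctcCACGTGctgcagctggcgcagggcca

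The E-box was found in 2 of the 15 promoters of these genes (PER1 and NR1D2) and in 7.26% of all 35116 RefSeq promoters. The E′-box was found in 5 of the 15 (PER2, CRY1, CRY2, NR1D1 and CLOCK) and in 5.34% of all promoters. The D-box occurred in 3 of the 15 (PER2, PER3 and NR1D2), against 1.01% of all promoters, and the REV-ERB and ROR element in 3 of the 15 (NR1D2, BMAL1 and CLOCK), against 0.316%. The cAMP response element TGACGTCA was in 0 of the 15 promoters of these genes and in 1.85% of all. The DBP window held none of these letters. An E-box was not particular to TEF among the accessory genes described below. BHLHE40, BHLHE41, CIART and TIMELESS also held it, and BMAL2, NPAS2, RORA, NFIL3 and PRKAA1 held none of the elements. In the GENCODE annotation of GRCh38, the elements shown for PER1, CRY2, NR1D2 and CLOCK lay in an intron of the gene, those of PER2 and BMAL1 in an exon, and those of PER3, CRY1, NR1D1 and TEF outside the gene. NR1D2 was the only one of the 10 genes with an E-box, a D-box and a REV-ERB and ROR element together in 1 window.

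Expressed per length of the canonical transcript (RPKM), the 10 genes covered a wide range in control cells. NR1D2 stood highest at a mean of 19.0 RPKM, followed by CRY1 at 12.5 and CLOCK at 7.26. BMAL1 at 5.87, CRY2 at 4.96, NR1D1 at 4.50 and PER1 at 3.30 lay in the middle. PER3 at 1.96, DBP at 1.87 and PER2 at 0.370 were lowest. PER3 and DBP were neighbours that did not separate on this length, with control replicates of 2.20 and 1.73 RPKM for PER3 and of 1.98 and 1.76 RPKM for DBP. With the union of all exons as the length, PER3 stood at 1.54 RPKM and DBP at 0.626 RPKM, and the order of the middle genes changed. NR1D1 at 4.50 RPKM stood above CRY2 at 3.31 and BMAL1 at 2.36, while NR1D2, CRY1 and CLOCK remained highest and PER2 lowest.

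**Figure D1:**
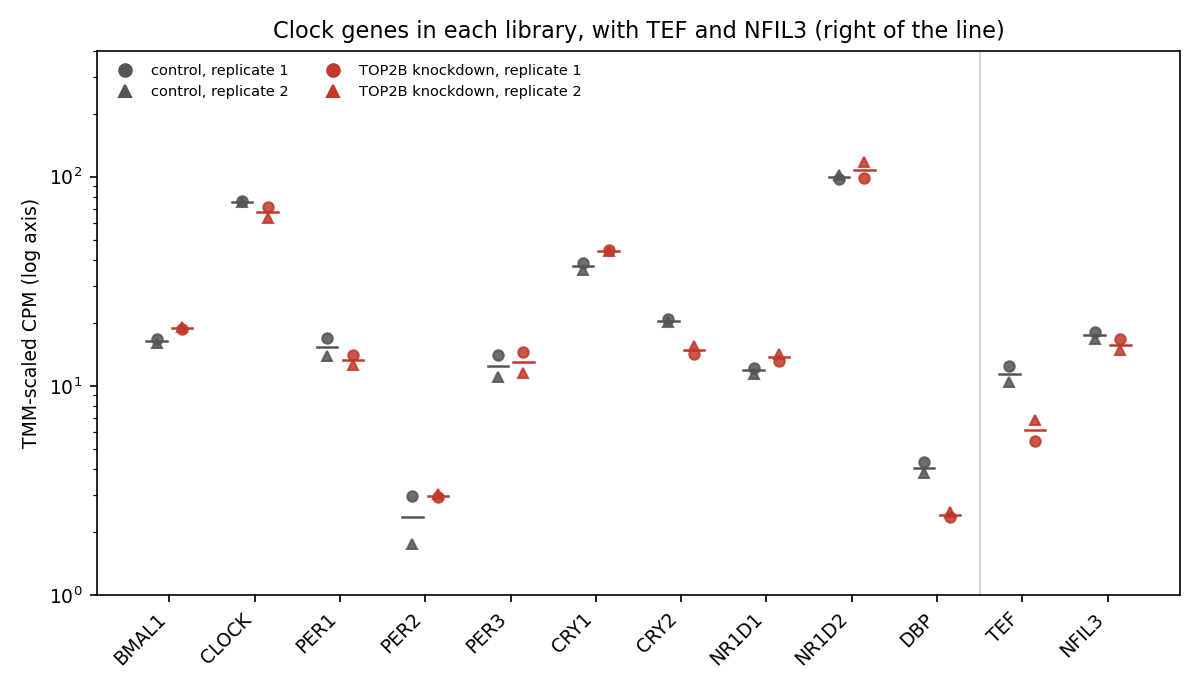
TMM-scaled CPM of each of the 10 clock genes and of TEF and NFIL3, which share D-box elements with DBP, in the 2 control and 2 TOP2BKD libraries, 1 point per library and a short line at the group mean, on a log scale. CRY2, DBP, TEF, CLOCK and NFIL3 sit lower in both TOP2BKD libraries than in both control libraries, CRY1, NR1D1 and BMAL1 sit slightly higher, and the points of PER1, PER2, PER3 and NR1D2 overlap between the groups.

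None of the 10 clock genes passed the test after TOP2B knockdown: 0 rose and 0 fell at an adjusted p of 0.05 in the quasi-likelihood test of edgeR. DESeq2 also called 0. With the replicate number as a block, edgeR called 1 higher and 3 lower, but also 44.2% of all genes. Over all genes tested edgeR called 10.8%, with 6.66% higher and 4.18% lower, and DESeq2 called 11.8%. At an unadjusted p of 0.05, 2 of the 10 (CRY2 and DBP, both lower) passed, against 26.3% of all genes. The groups did not overlap in 6 of the 10 genes (CRY1, CRY2, NR1D1, DBP, BMAL1 and CLOCK), against 54.3% of all genes. The log2 fold change was above 0 in 6 genes and below 0 in 4, with a median of 0.08 where the median of all genes was -0.0029. The median size of the change without regard to sign was 0.21 for the 10 genes and 0.24 for all genes. Without control replicate 2 the median over the 10 genes was -0.05.

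**Figure D2:**
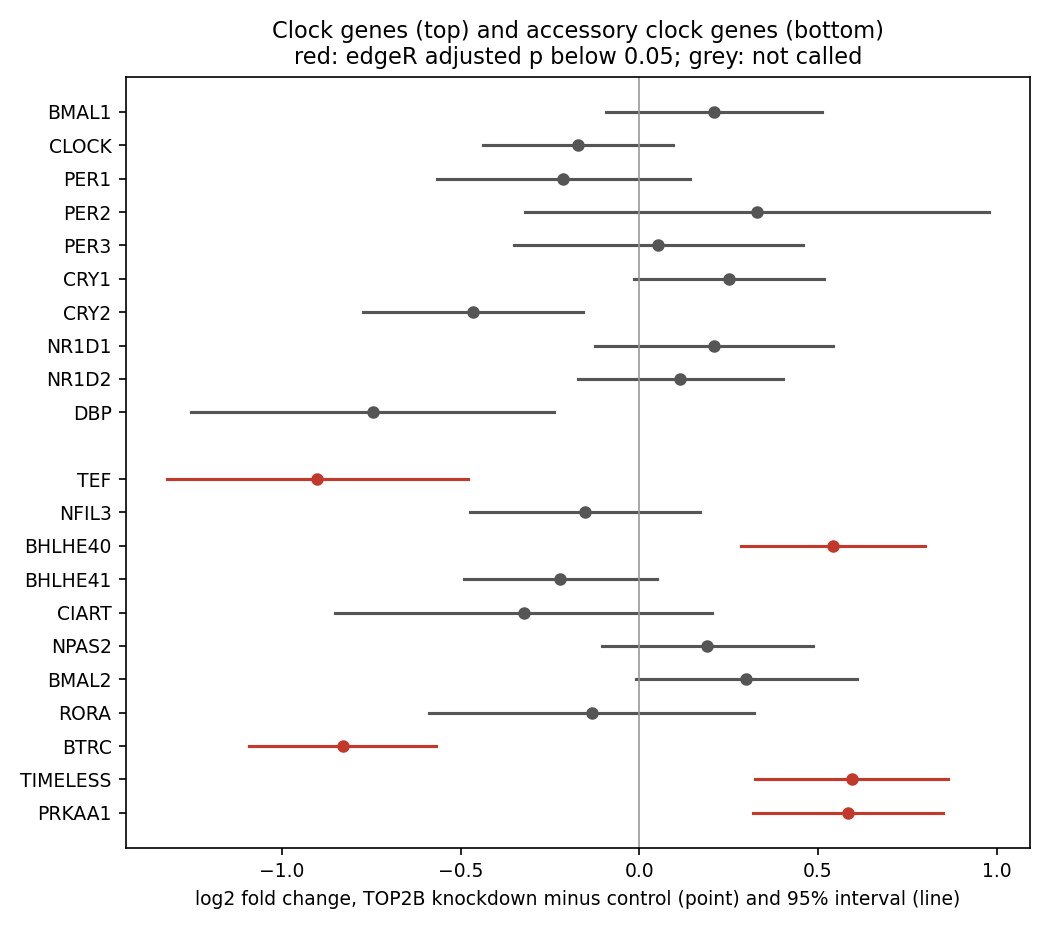
log2 fold change of TOP2BKD over control for each of the 10 clock genes (top) and 11 accessory clock genes (bottom) with its 95% confidence interval from edgeR, called genes in red and the rest in grey. The intervals of CRY2 (-0.77 to -0.16) and DBP (-1.25 to -0.24) lie below 0, the other 8 clock gene intervals include 0, and the red genes are TEF, BTRC, BHLHE40, TIMELESS and PRKAA1.

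CRY2 and DBP had the lowest log2 fold changes of the 10 genes, and neither passed the test after adjustment over all genes. CRY2 (ENSG00000121671, chromosome 11 from 45847118 to 45883248), a flavoprotein repressor of CLOCK and BMAL1, had 500 and 459 counts in the control replicates and 301 and 313 in the TOP2BKD replicates, or 20.9 and 20.1 against 14.2 and 15.5 CPM. Both TOP2BKD libraries lay below both control libraries, at 72.5% of control (log2 fold change -0.46, SE 0.14, edgeR adjusted p = 0.0604). CRY2 shared 0% of its exon bases with another gene. CRY1 (ENSG00000008405, chromosome 12 from 106991364 to 107093549), its paralogue and the stronger repressor of the loop, stood at 38.8 and 35.6 CPM in control and 44.4 and 44.2 CPM in TOP2BKD. Both TOP2BKD libraries were above both control libraries, and the difference did not pass the test (0.25, SE 0.12, 95% interval -0.01 to 0.52, adjusted p = 0.215).

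DBP (ENSG00000105516, chromosome 19 from 48630030 to 48637379) is the D-box activator whose transcript is known as a strongly rhythmic readout of CLOCK and BMAL1. It had 103 and 87 counts in control and 50 in each TOP2BKD replicate, or 4.30 and 3.82 against 2.36 and 2.48 CPM. The groups did not overlap, and the TOP2BKD level was 59.6% of control (-0.75, SE 0.23, edgeR adjusted p = 0.0662). Without a filter on low counts DBP passed the edgeR test (adjusted p = 0.0293). That fit tested more genes and called 2343 of them, against 1665 with the filter. Of the DBP exon bases, 10.2% are shared with SPHK2 on the opposite strand, and reads there cannot be assigned, because the sources used here do not say whether counting used strand. SPHK2, named for this overlap after its values were seen, also fell, from 35.0 and 42.6 to 26.0 and 26.7 CPM (-0.56, SE 0.14, adjusted p = 0.0286), and its part in the DBP value was not tested. SPHK2 did not pass without control replicate 2 (-0.40, adjusted p = 0.219) or TOP2BKD replicate 1 (-0.53, adjusted p = 0.0757).

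Of the D-box factors related to DBP, TEF passed the test, NFIL3 did not and HLF was not tested. TEF (ENSG00000167074, chromosome 22 from 41367333 to 41399326), which binds the same D-box elements, fell from 12.5 and 10.4 CPM to 5.43 and 6.84 CPM. Its TOP2BKD libraries lay below both control libraries at 53.6% of control (-0.90, SE 0.19, adjusted p = 0.0155), and none of its exon bases is shared with another gene. Without TOP2BKD replicate 1 the change was -0.74 and no longer passed (adjusted p = 0.0567). HLF, the remaining activator of this family, had 4 or 5 counts in each library and was not tested. NFIL3, the repressor that competes for D-box elements, was at 18.2 and 16.8 CPM in control and 16.7 and 14.8 CPM in TOP2BKD (-0.15, SE 0.14, adjusted p = 0.555).

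Neither activator passed the test. BMAL1 (ENSG00000133794, chromosome 11 from 13276652 to 13387266) stood at 16.7 and 16.0 CPM in control and at 18.6 and 19.2 CPM in TOP2BKD. CLOCK (ENSG00000134852, chromosome 4 from 55427903 to 55546909) stood at 76.4 and 75.6 CPM in control and at 71.4 and 63.6 CPM in TOP2BKD. BMAL1 was higher and CLOCK lower in both TOP2BKD libraries than in both control libraries. The log2 fold changes were 0.21 (SE 0.14, 95% interval -0.09 to 0.51, adjusted p = 0.369) for BMAL1 and -0.17 (SE 0.12, 95% interval -0.44 to 0.09, adjusted p = 0.406) for CLOCK. NPAS2, which can stand in for CLOCK, was at 20.2 and 22.1 CPM in control and at 23.2 and 24.99 CPM in TOP2BKD (0.19, adjusted p = 0.403). BMAL2, the relative of BMAL1, was at 86.5 and 103.2 CPM in control and at 107.0 and 126.6 CPM in TOP2BKD (0.30, adjusted p = 0.204). For both stand-ins each TOP2BKD library was above each control library, without passing the test.

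The 3 PER genes, which encode the partners of CRY in the repressor complex, overlapped between the groups. PER1 (ENSG00000179094, chromosome 17 from 8140472 to 8156506), which also responds acutely to cAMP and glucocorticoids, was at 16.9 and 13.9 CPM in control and at 14.0 and 12.6 CPM in TOP2BKD (-0.21, SE 0.16, adjusted p = 0.442). PER2 (ENSG00000132326, chromosome 2 from 238244044 to 238290102) had the fewest reads of the 10 genes in control, with 71 and 40 counts in the control replicates and 62 and 61 in TOP2BKD, or 2.96 and 1.75 against 2.93 and 3.02 CPM. Its control replicates differed by 0.76 on the log2 scale, and single TOP2BKD libraries differed from single control libraries by -0.02 to 0.79 (fold change 0.33 on the log2 scale, SE 0.29, 95% interval -0.32 to 0.98, adjusted p = 0.519). Its change was 0.76 without control replicate 1 and 0.01 without control replicate 2, passing the test in neither. PER3 (ENSG00000049246, chromosome 1 from 7784291 to 7845177) was at 14.0 and 11.01 CPM in control and at 14.5 and 11.5 CPM in TOP2BKD (0.05, SE 0.18, adjusted p = 0.888). Its replicates differed within each group by more than the groups did, and 16.6% of its exon bases are shared with other genes, of which UTS2 had 0 counts in every library.

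Both REV-ERB receptors, the repressors of BMAL1, were slightly above control on average. NR1D1 (ENSG00000126368, chromosome 17 from 40092793 to 40100589) was at 12.2 and 11.4 CPM in control and at 13.2 and 14.2 CPM in TOP2BKD, without overlap (0.21, SE 0.15, adjusted p = 0.416). NR1D2 (ENSG00000174738, chromosome 3 from 23945286 to 23980617) was at 97.4 and 101.7 CPM in control and at 98.2 and 117.5 CPM in TOP2BKD, with overlap (0.12, SE 0.13, adjusted p = 0.621). Neither passed the test. NR1D1 shares 18.0% of its exon bases with THRA, the thyroid hormone receptor gene on the opposite strand, whose own count fell from 68.8 and 80.9 to 37.2 and 44.5 CPM (-0.87, adjusted p = 0.00462). THRA was named for this overlap after its values were seen, and its part in the NR1D1 value was not tested. RORA, the activator that opposes the REV-ERB receptors, was at 4.89 and 4.39 CPM in control and at 4.44 and 4.02 CPM in TOP2BKD (-0.13, adjusted p = 0.732), while RORB had at most 1 count in every library.

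Ratios of paired clock genes within a library need no scaling between libraries. There were 2.85 to 3.13 CRY1 counts per CRY2 count in TOP2BKD, against 1.77 to 1.86 in control. The CLOCK to BMAL1 ratio was 4.58 and 4.72 in control and 3.83 and 3.31 in TOP2BKD, and the PER1 to PER2 ratio was 5.70 and 7.93 in control and 4.79 and 4.16 in TOP2BKD. The groups did not overlap in these 3 ratios. The share for ratios of other gene pairs was not computed, and among single genes tested the groups did not overlap in 54.3%. The NR1D2 to NR1D1 ratio overlapped, with 7.96 and 8.88 in control and 7.43 and 8.28 in TOP2BKD. An exact two-sided permutation test of 2 libraries against 2 cannot give a p below 0.333. It gave 0.333 for each of the 3 ratios (0.444 adjusted over the 4 ratios) and 0.667 for the ratio of the REV-ERB genes (0.667 adjusted).

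**Figure D3:**
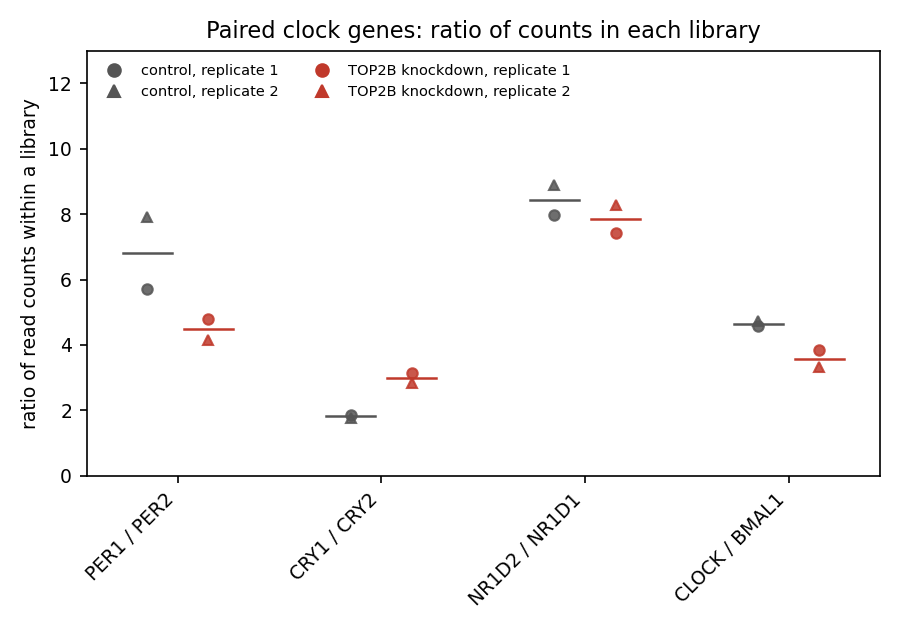
Ratio of counts of 4 pairs of clock genes within each library, for the 2 control and 2 TOP2BKD replicates, with a short line at the group mean. The CRY1 to CRY2 ratio is 1.86 and 1.77 in control and 3.13 and 2.85 in TOP2BKD, and the NR1D2 to NR1D1 ratio overlaps between the groups.

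Beyond the core, 39 accessory clock genes were listed, namely partners, opposing factors, kinases, ubiquitin ligases and chromatin cofactors, and 35 were tested. Of these, 3 rose (BHLHE40, TIMELESS and PRKAA1), 2 fell (TEF and BTRC) and 30 did not pass, so that 14.3% were called against 10.8% of all genes. Their median log2 fold change was 0.08. The called genes belonged to different branches of the clock, and their values follow.

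BTRC encodes the ubiquitin ligase subunit that marks phosphorylated PER proteins for degradation, and also acts on β-catenin and the NF-κB inhibitor. It fell from 61.3 and 65.6 CPM to 35.9 and 35.5 CPM, 56.2% of control (-0.83, SE 0.12, adjusted p = 0.00278), and was called in each of the 4 fits that left out 1 library (-0.88 to -0.77). FBXW11, its close paralogue, belonged to the genes that did not pass. PRKAA1, a catalytic subunit of the AMP-activated kinase that marks CRY proteins for degradation, rose from 94.0 and 86.2 CPM to 132.8 and 137.3 CPM (0.58, SE 0.12, adjusted p = 0.0138). PRKAA2, another catalytic subunit of this kinase, belonged to the genes that did not pass. In BTRC and PRKAA1 the groups were clearly apart, and the replicates within TOP2BKD were close to each other. Without control replicate 2, PRKAA1 stood at 0.53 and did not pass (adjusted p = 0.0965).

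BHLHE40 (DEC1), a repressor that competes with CLOCK and BMAL1 for E-boxes, rose from 44.4 and 46.7 CPM to 65.8 and 66.8 CPM (0.54, SE 0.12, adjusted p = 0.0168). It did not pass without control replicate 1 (0.50, adjusted p = 0.0768), and 12.8% of its exon bases are shared with BHLHE40-AS1, which had 3 to 14 counts. Its paralogue BHLHE41 (DEC2) lay on the other side of control, at 72.2 and 63.3 CPM in control and 57.5 and 58.7 CPM in TOP2BKD, and did not pass (-0.22, adjusted p = 0.284). CIART, a further repressor of CLOCK and BMAL1, was at 3.72 and 3.11 CPM in control and 2.88 and 2.58 CPM in TOP2BKD (-0.32, adjusted p = 0.429). TIMELESS, named for the fly clock gene and in human cells part of the replication fork, rose from 112.2 and 102.0 CPM to 161.3 and 162.2 CPM (0.59, SE 0.12, adjusted p = 0.0138). Without control replicate 2 it did not pass (0.53, adjusted p = 0.103). Of 20 proliferation genes listed, 12 rose and 0 fell with a median of 0.60, where 6.66% of all genes were called higher, and whether TIMELESS moved as part of that group was not tested.

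Genes downstream of the clock gave no common direction. Of 20 output genes listed, 15 were tested, 1 rose, 2 fell and 12 did not pass, a count of 3 in 15 where 10.8% of all genes were called, with a median of -0.0039. VEGFA, the angiogenic growth factor, rose from 214.4 and 163.4 CPM to 302.6 and 316.4 CPM (0.71, adjusted p = 0.0182), but not without control replicate 2 (0.54, adjusted p = 0.154). RBM3, a cold-inducible RNA-binding protein that follows body temperature rhythms, fell from 411.1 and 429.1 CPM to 274.8 and 278.1 CPM (-0.60, adjusted p = 0.0187). This call was lost without control replicate 2 (adjusted p = 0.11), TOP2BKD replicate 1 (adjusted p = 0.142) or TOP2BKD replicate 2 (adjusted p = 0.124), with a change of -0.64 to -0.57 over the 4 fits. The related CIRBP did not pass (0.08, adjusted p = 0.728). HSPA1B, a heat shock protein, fell from 54.2 and 43.6 CPM to 34.7 and 27.0 CPM (-0.66, adjusted p = 0.0266). The value is uncertain, since HSPA1B is nearly identical to HSPA1A and shares 36.6% of its exon bases with another gene on the same strand. It lost its call without control replicate 1 (adjusted p = 0.0678) or TOP2BKD replicate 2 (adjusted p = 0.109).

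Serum, cAMP and glucocorticoid signals reset the clock through PER1, and genes that respond to such signals were listed as well. Of 14 listed (PER1 included), 12 were tested, 1 rose and 0 fell (8.33%, against 10.8% of all genes), with a median of 0.27. DESeq2 called 0 of them, where it called 11.8% of all genes. The 1 gene called by edgeR was FOSB, a serum-responsive subunit of AP-1. It stood at 3.17 and 2.68 CPM in control and at 4.86 and 5.80 CPM in TOP2BKD (0.86, adjusted p = 0.0348). DESeq2 did not call it (adjusted p = 0.0825), and edgeR lost it without control replicate 2 (adjusted p = 0.115) or TOP2BKD replicate 2 (adjusted p = 0.142).

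When each library was left out in turn, 0 of the 10 clock genes were called in any of the 4 fits. CRY2 stayed between -0.52 and -0.40 and DBP between -0.82 and -0.66. CRY1 stayed between 0.20 and 0.31, NR1D1 between 0.17 and 0.26, BMAL1 between 0.19 and 0.24, CLOCK between -0.25 and -0.08 and PER1 between -0.34 and -0.07. PER3, at -0.12 to 0.24, and NR1D2, at -0.01 to 0.24, took both signs, PER3 below 0 without control replicate 2 or TOP2BKD replicate 1 and NR1D2 below 0 without TOP2BKD replicate 2.

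**Figure D4:**
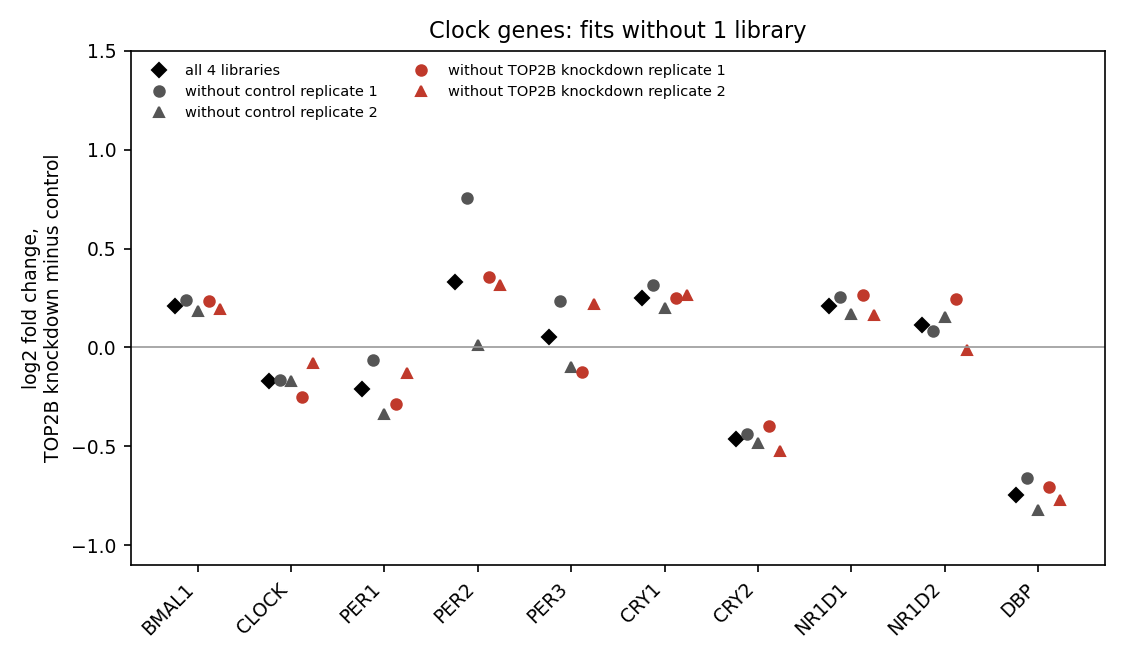
log2 fold change of each clock gene with all 4 libraries and with each library left out. CRY2 and DBP stay below 0 in all 4 such fits, CRY1, NR1D1 and BMAL1 stay above 0, and PER3 and NR1D2 take both signs.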

How the data were processed

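RNA was measured in 2 control and 2 TOP2BKD libraries (polyadenylated RNA, TruSeq RNA LT kit, single-end 65-bp reads). Per the submitters' processing notes and the study's methods, the authors checked reads with FastQC 0.11.6, aligned them to GRCh38 with STAR 2.5.4a and counted genes during mapping with Gencode v24. The deposited values are raw counts per gene. The table holds 4 further columns that repeat the first 4 exactly and were not used. The count columns are named as stranded and paired-end, which differs from the single-end reads of the methods, and whether counting used strand is not given in the sources used here.

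Of 60725 genes, the 15356 that reached 10 counts in 2 or more libraries were compared with edgeR 4.0.16 in R 4.3.3 (TMM scaling, glmQLFit and glmQLFTest, condition as the only term). P-values were adjusted by Benjamini-Hochberg over all genes tested and called below 0.05. CPM values were scaled by TMM. Standard errors were derived from the log2 fold change and the F statistic of the test. The 95% intervals were built from these with the t distribution. The common dispersion of the fit was 0.0117. RPKM used the canonical GENCODE v44 transcript. Shared exon bases were measured in GENCODE v44, and symbols were matched for 93.1% of gene identifiers. Ratios of counts were compared by exact permutation tests.

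The 10 genes and the accessory, output, signal, proliferation and marker lists were chosen with earlier results of these data known. All 10 genes were named, as were every called gene of the accessory, output and signal lists and the direct partners or opposing factors BMAL2, NPAS2, RORA, NFIL3, TEF, HLF, BHLHE40, BHLHE41 and CIART. Alternatives were size factors of DESeq2 in edgeR, unscaled library sizes, upper quartile scaling, no filter, a mean of at least 100 counts, the Wald test of DESeq2 1.42.0, the replicate number as a block, and leaving out each library. The scripts were tested on simulated data. P-values from edgeR and DESeq2 set each difference against the spread between these 4 libraries of 1 line. In edgeR the spread of each gene was estimated in part from the other genes tested (median of 9.9 total degrees of freedom).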

Additional observations from a re-analysis of the deposited data

How the results depend on the processing

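Scaling by DESeq2 size factors, by upper quartiles or by library size alone left TOP2B, the 10 clock genes and the accessory, output and signal-responsive genes named with values on their side of the threshold and in their direction, and 11 or 12 proliferation genes called. The 4 ratios use no scaling or filter. Of the same genes, DESeq2's own test lost FOSB alone (adjusted p = 0.0825). Without a filter, 1 clock gene was called lower (DBP), and over the scaling, filter and test alternatives the adjusted p ranged from 0.0293 to 0.184 for DBP and from 0.0522 to 0.0956 for CRY2. Of the genes given with a fold change, the filter at a mean of 100 counts removed PER2, DBP, RORA, CIART and FOSB, which then had no value. For THRA, SPHK2, the partners that were not called, and the marker, signal-responsive and proliferation counts, the alternatives were added after seeing the data. Without a filter 3 marker and 3 signal-responsive genes were called. The fit without a filter, which also called DBP, called 2343 genes in all, against 1665 with the filter.

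The labels number the replicates in both groups. With 2 pairs the numbers were not taken as pairing the samples. The deviations from the group means nevertheless correlated at 0.479 between replicates of the same number. With the replicate number as a block, edgeR called 6786 genes (44.2%), 1 clock gene higher (CRY1, adjusted p = 0.00526) and 3 lower (CRY2, adjusted p = 0.0007, DBP, adjusted p = 0.00437, and CLOCK, adjusted p = 0.0219), 18 accessory genes (BMAL2 and BHLHE41 among them), 8 output, 7 marker and 7 signal-responsive genes.

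Fits without 1 library, which assume that the lone sample varies like the other group, called 1210 to 1538 genes, 3 to 6 accessory genes and 1 to 3 output genes. Without control replicate 2, 3 accessory genes and 1 output gene were called. The median over the clock genes ranged from -0.045 to 0.159, the former without control replicate 2. PER3 ranged from -0.12 to 0.235 and was below 0 without control replicate 2 (-0.10) and without TOP2BKD replicate 1 (-0.12), and NR1D2 ranged from -0.0116 to 0.243 and was below 0 without TOP2BKD replicate 2. At 40 to 103 counts, PER2 and DBP had the widest intervals of the 10 genes.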
